A study of Mus musculus with 11 samples.

Results

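The region described here is the stretch of mouse chromosome 1 from 60500001 to 61400000 (mm9) that holds 3 T-cell receptor genes, Cd28, Ctla4 and Icos. It was chosen by its coordinates, not by any contact value. The members are the 3 genes, taken as windows of 50 kb centred near 60.79 Mb (Cd28), 60.95 Mb (Ctla4) and 61.04 Mb (Icos), and the 36 bins of 25 kb that make up the region, out of 98702 such bins in the genome. Cd28 and Ctla4 lie 160 kb apart, Ctla4 and Icos 90 kb apart, and Cd28 and Icos 250 kb apart.

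CD28, CTLA4 and ICOS are related receptors of the immunoglobulin superfamily on T cells. CD28 gives the costimulatory signal that naive T cells need beside the antigen receptor, CTLA4 competes for the same B7 ligands and restrains activation, and ICOS is a costimulatory receptor that appears on activated T cells and binds its own ligand. Hi-C ligates DNA ends that lie close together in a fixed nucleus, and a contact is recorded as the positions of both ends. Contacts are denser within domains of a megabase scale, whose limits show as minima of insulation, and chromosomes also split into 2 compartments whose members contact each other over long distances.

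The files gave contacts from CD4+ Th1 cells, a helper T-cell type, grown from spleens of male C57BL/6 mice with anti-CD3 at 1 µg/ml for 3 days and then expanded with IL-2 at 20 ng/ml. All samples shared this strain, sex and culture. There was 1 ensemble map of a cell population cut with Bgl II, 9 single cells cut with Bgl II, 1 single cell (cell 8) cut with Dpn II, and 1 pooled file of single cells with no column for the cell. The labels name no separate animals or cultures, so p-values over cells measure only the spread between these cells, and the enzyme of cell 8 cannot be told apart from the cell itself. The labelled cell type could not be set against marker genes, since the files hold DNA contacts and no expression.

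The ensemble listed 51834382 contacts, 50.7% of them between chromosomes (trans), and the 9 Bgl II cells listed 11156 to 30665 contacts each. The 9 cells' contacts made up 7.62% of the pooled file and were taken out of it. The 2119836 contacts left are called the pool below, and they share no contact list with the 9 cells. Intervals are 95% Wilson intervals for shares and 95% exact Poisson intervals for counts, and cover counting error only. A contact with both ends in the region counts as 2 ends. The Wilson intervals treat these as independent, so those for local and trans shares of ends are too narrow. The region carried 535 Bgl II fragment ends, 1 per 1.68 kb on average, and its 25 kb bins held 7 to 28 of them with a median of 14, against a median of 13 on chromosome 1. The windows of Cd28, Ctla4 and Icos carried 32, 30 and 28 ends.

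Among the protein-coding genes of the RefSeq gene table (GRCm38.p6), Cd28, Ctla4 and Icos follow each other with no other between them. Non-coding genes were not looked at. Abi2 and Raph1 precede them, and Pard3b and Nrp2 follow. A Hi-C contact can only be read where the enzyme cuts. Of the 3 members, the promoter table matched Ctla4. Its 250 bases upstream of the start, at chr1:60908775-60909024 on the plus strand of GRCm38.p6, are printed because they contain no Bgl II site (AGATCT) and no Dpn II site (GATC, which every AGATCT contains). Both motifs are palindromes and so were searched on both strands at once.
Ctla4: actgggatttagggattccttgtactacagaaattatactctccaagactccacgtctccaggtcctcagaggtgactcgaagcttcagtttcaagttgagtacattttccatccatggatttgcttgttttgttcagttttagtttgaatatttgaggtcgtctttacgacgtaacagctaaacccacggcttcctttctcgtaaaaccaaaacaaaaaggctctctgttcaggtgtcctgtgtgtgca
Among 32851 promoters of the same 250-base length, 6.37% held AGATCT and 41.9% held GATC. Contacts of Ctla4 were read at the 30 fragment ends of its 50 kb window.

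All 3 gene windows met one another in the ensemble more often than their distances gave on chromosome 1. Cd28, the activating receptor, and Ctla4, the restraining one, shared 31 ensemble contacts where 12.3 were expected, a ratio of 2.52 (interval 1.71 to 3.58). The expected count is the mean of chromosome 1 at that distance, scaled by the fragment ends of both windows. Ctla4 and Icos shared 28 contacts against 14.2 expected, a ratio of 1.97 (1.31 to 2.85). Cd28 and Icos, the pair farthest apart, shared 27 contacts against 8.72 expected, a ratio of 3.10 (2.04 to 4.51). The 3 intervals overlap, so the order of the pairs is not resolved. Window pairs of chromosome 1 at the same distances had median ratios of 0.654 to 0.672, and the Cd28 and Icos pair stood at percentile 96.8 of 7409 pairs, the Cd28 and Ctla4 pair at percentile 94.2 and the Ctla4 and Icos pair at percentile 89.97. These ratios came from few distinct ligations: 3.23%, 3.33% and 3.01% of the possible pairs of fragment ends were seen for Cd28 with Ctla4, Ctla4 with Icos and Cd28 with Icos.

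The pool was too shallow to resolve single gene pairs. It held 2 contacts between Cd28 and Ctla4 against 1.27 expected, a ratio of 1.57 (0.190 to 5.67), and 3 between Ctla4 and Icos against 1.72 expected, a ratio of 1.74 (0.359 to 5.09). Between Cd28 and Icos it held 0 contacts against 0.800 expected, which allows a ratio of up to 4.61. None of the 10 listed single cells held a contact between any of the 3 gene windows, and the 9 Bgl II cells together were expected to hold only 0.0758, 0.126 and 0.0558 of them for Cd28 with Ctla4, Ctla4 with Icos and Cd28 with Icos. The ensemble excess between these genes was thus not detectable at the depth of the cells.

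From each gene window, ensemble contacts to the 500 kb on its left exceeded the distance mean by a similar ratio. The left ratio was 2.38 (2.09 to 2.71) for Cd28, 2.57 (2.25 to 2.93) for Ctla4 and 2.40 (2.09 to 2.74) for Icos. To the 500 kb on the right the ratio was 2.20 (1.92 to 2.50) for Cd28, 1.67 (1.43 to 1.94) for Ctla4 and 1.76 (1.51 to 2.04) for Icos. The left and right intervals overlapped for Cd28 and were apart for Ctla4 and Icos, the genes nearer the right end of their domain. In the pool the order was not the same: the right ratios were 1.64 (0.985 to 2.55), 1.96 (1.24 to 2.94) and 1.73 (1.06 to 2.68) for Cd28, Ctla4 and Icos, and the left ratios 1.204 (0.622 to 2.10), 1.79 (1.04 to 2.86) and 1.15 (0.595 to 2.01), with left and right intervals overlapping for each gene.

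**Figure D1:**
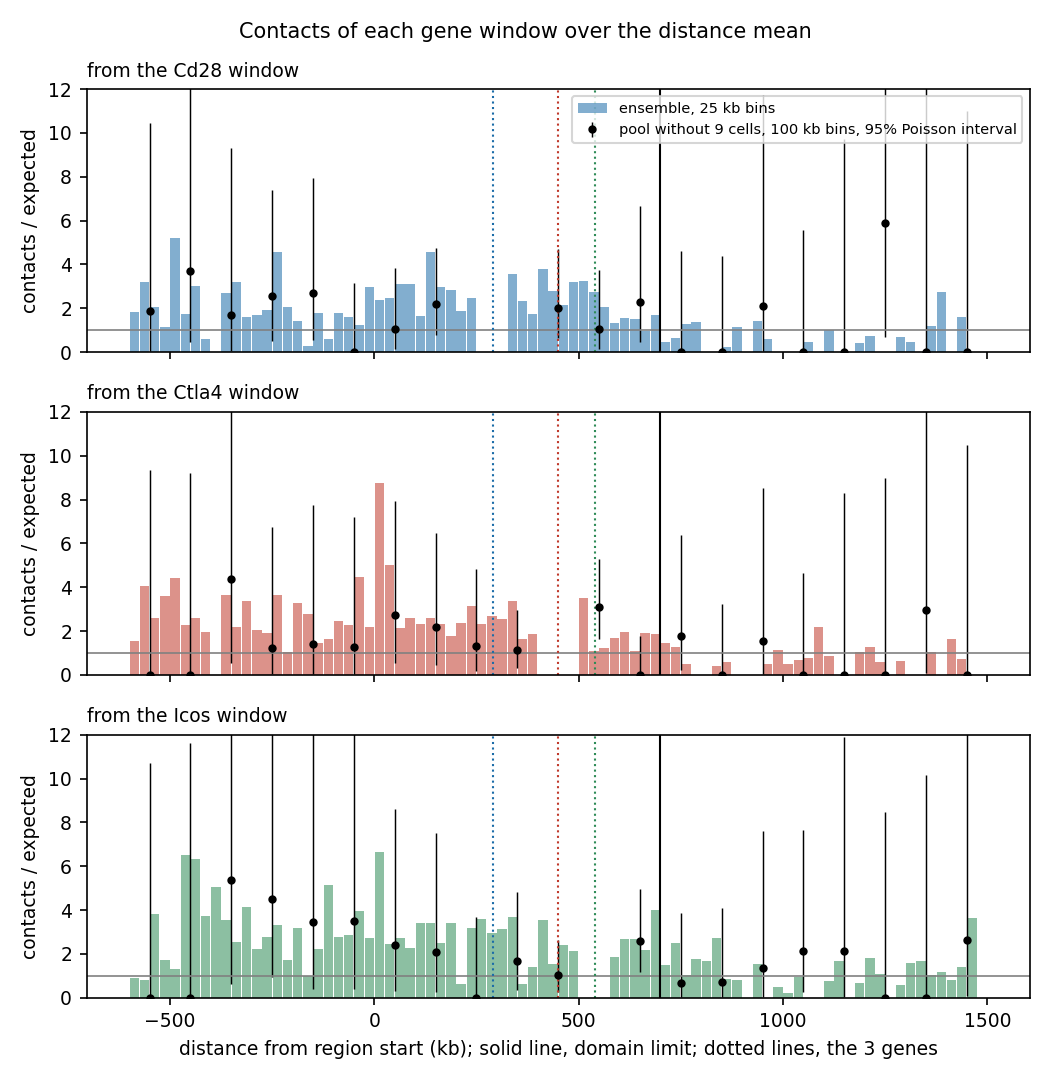
Contacts of the Cd28, Ctla4 and Icos windows over the distance mean (vertical axis, ratio) along the distance from the region's start in kb, with bars for 25 kb bins of the ensemble and points for 100 kb bins of the pool without the 9 cells (95% Poisson intervals). Bars stand mostly above 1 left of the solid line, which marks the domain limit 160 kb right of Icos, and lower beyond it.

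Over the whole region the excess was broad. Of the 595 pairs of 25 kb bins that lie 50 kb or more apart, 225 reached 2-fold over the distance mean in the ensemble, or 37.8%, while 16.7% of the 243787 such pairs on chromosome 1 did. The median pair of the region had a ratio of 1.51 and the median pair of chromosome 1 a ratio of 0.508. Counts per pair were low, with a median of 3 contacts and 101 pairs at 0, so that single pairs have wide intervals. Blocks of 100 kb, a size added after the data were seen, gave 13 of 36 pairs at 2-fold or more (36.1%), against 9.07% on chromosome 1.

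The highest 25 kb pairs joined the left end of the region to the stretch around Ctla4. The pair of 60575001 to 60600000 with 60900001 to 60925000, the bin just left of the Ctla4 window, had 20 contacts against 2.26 expected, a ratio of 8.83 (5.395 to 13.6). The pool held 2 contacts there against 0.188 expected. The bin 60500001 to 60525000 met 60950001 to 60975000, in the right part of the Ctla4 window, 12 times against 0.793 expected, a ratio of 15.1 (7.82 to 26.4). The same left bin met 61000001 to 61025000, which overlaps the start of the Icos window, 9 times against 0.896 expected, and 60900001 to 60925000 5 times against 0.609. The bin 60625001 to 60650000 met 60900001 to 60925000 9 times against 1.28 expected. The pool and the 9 cells held 0 contacts in each of these pairs other than the one from 60575001, and the pool was expected to hold under 1 contact in each. These pairs were picked as the highest of the 528 pairs at least 100 kb apart, and their intervals do not allow for that choice. Among the 528 pairs, 99 had no contact, so no order can be given at the low end.

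Blocks of 100 kb gave counts high enough to set the pool beside the ensemble. The block from 60.5 to 60.6 Mb met that from 60.9 to 61.0 Mb, which holds the Ctla4 window, 100 times in the ensemble against 25.6 expected, a ratio of 3.91 (3.18 to 4.75). In the pool it met it 10 times against 2.07, a ratio of 4.83 (2.32 to 8.88). The same left block met 60.8 to 60.9 Mb 104 times against 31.2 in the ensemble, a ratio of 3.33 (2.72 to 4.04), and 15 times against 2.78 in the pool, a ratio of 5.39 (3.02 to 8.89). Both maps thus had their highest ratios of the region in the same corner, between its left end and the stretch from 60.8 to 61.1 Mb. Summed over that corner (60500001 to 60700000 with 60800001 to 61100000, chosen after its values were seen), the ensemble had 554 contacts against 178 expected, a ratio of 3.12 (2.86 to 3.39), and the pool 59 against 15.6, a ratio of 3.78 (2.88 to 4.88). The 9 Bgl II cells held 1 contact in that corner, in cell 1, from 60554677 to 60826775.

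**Figure D2:**
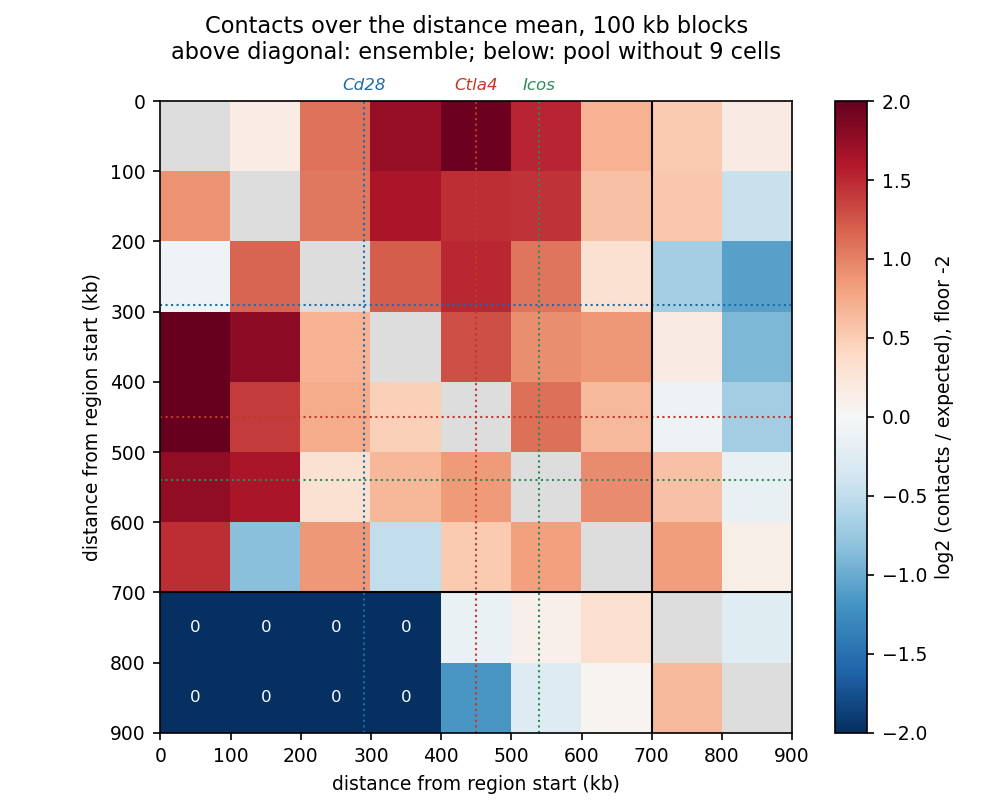
Contacts over the distance mean (log2, colour, with a floor at -2) between 100 kb blocks of the region, both axes in kb from its start, with the ensemble above the diagonal and the pool without the 9 cells below it. The strongest blocks lie at the left end against the Ctla4 and Icos stretch in both maps, and the 8 blocks marked 0 in the pool join the first 400 kb to the last 200 kb across the domain limit, drawn as a solid line.

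In the ensemble the 3 genes shared 1 domain, and its right limit lay inside the region. With insulation measured on the balanced ensemble matrix (50 kb bins, 500 kb window), the domain ran from 59750001 to 61200000. No limit lay between Cd28 and Icos at this setting or at any of the other 5 settings of window, bin, prominence and balancing. At 1450 kb the domain was longer than 95.1% of the 284 domains called on chromosome 1, whose median was 600 kb. With a 250 kb window the limits around the genes were 60.5 and 61.3 Mb, a shorter domain that still held all 3. In the main setting Cd28 lay 1040 kb from the left limit and Icos only 160 kb from the right one. The limit at 61.2 Mb was the 1 limit among the region's 18 bins of 50 kb, where 7.57% of the bins of chromosome 1 were limits.

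Insulation, the log2 of the mean contact across a point over the chromosome mean, fell from 1.22 at 60700000, left of Cd28, to 0.61 at 60950000 (Ctla4), -0.05 at 61050000 (Icos) and -0.36 at the limit. The pool, in which limits were called apart from the ensemble, had a limit at the same 50 kb step, with an insulation of -0.71. Limits were more frequent in the pool, with 599 on chromosome 1 against 285 in the ensemble. It also had a shallow minimum at 60.75 Mb, left of Cd28, with an insulation of 0.95. Of the 285 ensemble limits, 49.5% were less insulated than the one at 61.2 Mb, so it was of middling depth. The left limit at 59.75 Mb was shallower. Its insulation was 0.17, above the chromosome mean, and only 8.07% of the limits were less insulated. In the pool the insulation at that point was 0.025. The length of the domain rests on this shallow left limit.

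**Figure D3:**
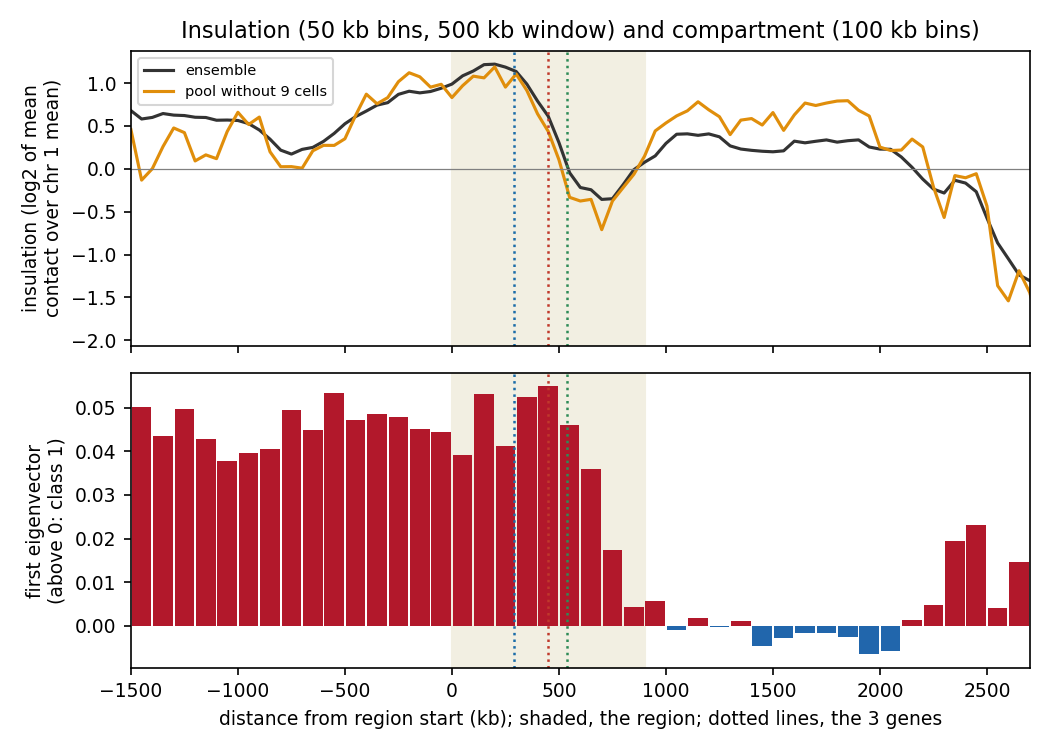
Above, insulation (log2) of the ensemble and of the pool without the 9 cells along the distance from the region's start in kb, and below, the first eigenvector of the ensemble per 100 kb bin, with the region shaded and the 3 genes as dotted lines (Cd28, Ctla4, Icos from left). Both insulation curves reach a minimum 700 kb from the start, right of Icos, and the eigenvector lies near 0 from 800 to 2100 kb.

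The gene side of the limit (700 kb, all 3 genes) and the right side (200 kb) differed in their contacts. Within the gene side the ensemble held 2785 contacts against 1538 expected, a ratio of 1.81 (1.74 to 1.88), and the pool 327 against 186, a ratio of 1.76 (1.57 to 1.96). Within the right side the ensemble ratio was 1.10 (0.976 to 1.24) and the pool ratio 1.36 (1.00 to 1.81). Across the limit the ensemble held 401 contacts against 359, a ratio of 1.12 (1.01 to 1.23), which with the balanced matrix was 0.865, on the other side of 1. The pool held 24 across the limit against 33.1, a ratio of 0.726 (0.465 to 1.08). In both maps the gene side was thus denser than the stretch across the limit, with intervals that do not overlap, while whether contacts across the limit lay above or below the distance mean depended on the map and the scaling.

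Longer distances across the limit were counted over the 9 pairs of 100 kb blocks at least 400 kb apart, a limit set after the values were seen. The pool held 1 contact there where 12.2 were expected, a ratio of 0.082 (0.0021 to 0.458). The ensemble held 133 against 155, a ratio of 0.859 (0.719 to 1.02). Both counts describe blocks in which the pool had been seen to be low, each map is a single one, and the difference between them was not tested.

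In the 9 Bgl II cells, 41 contacts had both ends in the region. On the gene side lay 31 against 15.6 expected, a ratio of 1.99 (1.35 to 2.82). On the right side lay 8 against 3.15, a ratio of 2.54 (1.10 to 5.01), and across the limit 2 against 2.19, a ratio of 0.913 (0.111 to 3.30). The 3 intervals overlap, so the cells did not resolve the limit. The contacts across were in cell 1, from 61000557 to 61221030, and in cell 2, from 61182182 to 61223796. In cell 8, cut with Dpn II, 1 of 2 contacts inside the region crossed the limit, from 60838699 to 61264612. Of cis contacts of 50 kb to 1 Mb that touched the domain, 32 of 39 in the 9 cells stayed inside it, or 82.1% (67.3 to 91.0). The share was 77.8% (74.2 to 81.0) in the pool and 70.5% (69.4 to 71.6) in the ensemble. No such share was computed for other domains of this length or from the distance mean. These values therefore do not show that the limits hold contacts in, and the difference between maps was not tested.

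The region kept more of its contacts local than the rest of chromosome 1 did in each of the 9 Bgl II cells. The share of its cis contact ends that belonged to contacts under 1 Mb was 58.3% in the lowest cell (cell 5), 75.0% in the median cell and 87.0% in the highest (cell 3), while for the rest of chromosome 1 it was 33.6%, 42.4% and 58.4%. The lowest value of the region, in cell 5, was just under the highest of the rest, in cell 10, and within each cell the region was higher. The mean difference was 31.4 ± 13.0 percentage points (SD, n = 9 cells), higher in 9 of 9 cells, with p = 0.00391 in the exact two-sided sign-flip permutation test, the smallest that 9 cells can give, and 0.0117 after Benjamini-Hochberg adjustment over 3 tests. The same share was 63.2% (60.8 to 65.5) in the pool against 44.7% for the rest of chromosome 1, and 38.0% (37.4 to 38.6) in the ensemble against 29.1%. Among 1920 windows of 900 kb on chromosome 1, the region stood at percentile 97.3 for the pool and at 92.4 for the ensemble. Among 23641 such windows on all autosomes it stood lower, at 93.0 for the pool and 83.4 for the ensemble. The share was 66.7% (30.0 to 90.3), or 4 of 6 ends, in cell 8, against 38.5% for the rest of chromosome 1. Those 4 ends came from 2 contacts, each counted at both ends.

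In the ensemble and the pool the local share was higher on the gene side. There 40.1% (39.4 to 40.8) of cis ends were in contacts under 1 Mb in the ensemble and 67.8% (65.2 to 70.4) in the pool, against 29.5% (28.3 to 30.8) and 48.3% (43.4 to 53.3) on the right side. In the 9 cells summed the sides were not resolved, with 78.2% (69.2 to 85.2) on the gene side and 72.7% (55.8 to 84.9) on the right side, both above the 41.7% of the rest of chromosome 1. Among the genes in the ensemble the share was 44.6% (42.1 to 47.2) for Cd28, 42.3% (39.9 to 44.8) for Ctla4 and 39.4% (37.0 to 41.9) for Icos, and the intervals of neighbours in this order overlap.

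The region also gave more contact ends per fragment end than the rest of the chromosome. The ratio was 0.892 in the lowest cell (cell 5), 1.16 in the median cell and 1.69 in the highest (cell 3), and it was above 1 in 8 of 9 cells. The mean log2 ratio was 0.30 ± 0.26 (SD, n = 9), with p = 0.0117 and adjusted p = 0.0176 in the same exact test. The ratio was 1.24 in the pool and 1.30 in the ensemble, at percentiles 99.3 and 79.7 of the windows on chromosome 1. Among the windows of all autosomes, the region's ends per fragment end stood at percentile 99.3 in the pool and 70.8 in the ensemble.

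The trans share of the region was higher than that of the rest of chromosome 1 on average, by less than the spread between cells. It was 9.09% in the lowest cell (cell 10), 20.0% in the median cell and 41.7% in the highest (cell 7), and the rest of the chromosome had 6.31%, 13.4% and 23.5%. The region was higher in 7 cells and lower in cell 4, at -11.1 points, and in cell 10, at -5.82 points. The mean difference was 7.66 ± 11.96 points (SD, n = 9), with p = 0.082 in the exact test and the same value after adjustment. Each share rests on 11 to 35 ends, and 1 cell decided the call: without cell 4 the difference was 10.0 points with an adjusted p of 0.0234 in the exact test, and without cell 10 it was 9.35 points with an adjusted p of 0.0469. Without cell 7 it was 4.89 points with an adjusted p of 0.164. Against all autosomes outside the region, in place of chromosome 1, the mean difference was 4.73 ± 12.3 points, with an adjusted p of 0.297 in the exact permutation test and 7 of 9 cells higher. The pool had a trans share of 22.1% (20.4 to 24.0) in the region and 17.1% in the rest of chromosome 1, and the ensemble 49.4% (49.0 to 49.8) and 48.0%. The other autosomes had 20.4% in the pool and 50.5% in the ensemble, where the region was thus the lower.

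**Figure D4:**
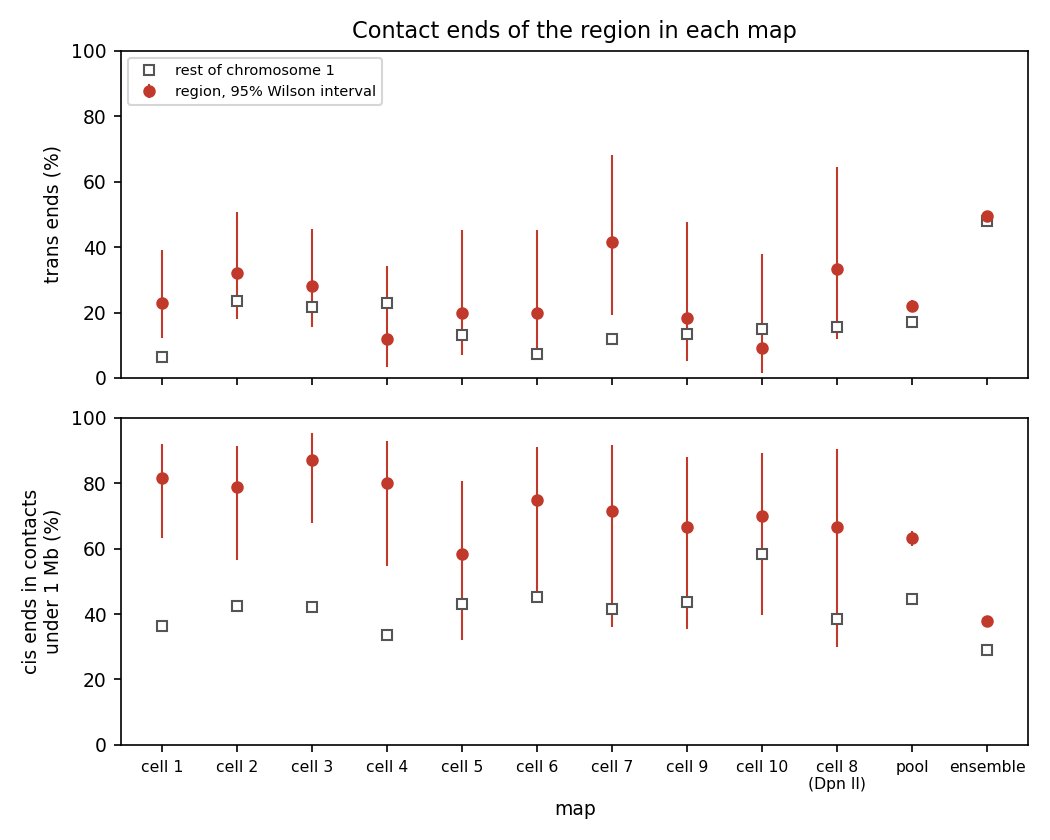
Share of the region's contact ends in trans (above) and share of its cis ends in contacts under 1 Mb (below), in percent, for each single cell, the pool without the 9 cells and the ensemble, with 95% Wilson intervals and the rest of chromosome 1 as open squares. In the lower panel each cell's region point lies above its square, and in the upper panel cells 4 and 10 lie below theirs.

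The trans share of the genes fell from left to right in the ensemble, from 51.8% (50.04 to 53.6) for Cd28 to 46.5% (44.7 to 48.3) for Ctla4 and 42.9% (41.0 to 44.7) for Icos. The intervals of Cd28 and Ctla4 do not overlap, and those of Ctla4 and Icos meet only at their edges. The pool did not give this order, with 23.9% (17.0 to 32.5), 26.8% (19.5 to 35.7) and 26.9% (19.4 to 35.9) for Cd28, Ctla4 and Icos, whose intervals overlap throughout.

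All of the region lay in the same compartment class in the ensemble. The first eigenvector of the 1 Mb correlation matrix, with its sign set so that class 1 has more fragment ends, was 0.10 for the bin from 60 to 61 Mb, which holds Cd28 and Ctla4, at percentile 95.8 of chromosome 1. For the bin from 61 to 62 Mb, which holds Icos, it was 0.061, at percentile 73.4. At 100 kb, 9 of the region's 9 bins were class 1, against 36.0% of chromosome 1. The eigenvector was 0.055 in the bin with Ctla4 (60900001 to 61000000), 0.046 in the bin with Icos (61000001 to 61100000), 0.036 in the last bin before the limit, and 0.017 and 0.004 in the bins beyond it. The values thus fell over the same stretch as the insulation minimum, and the genes lay on its high side.

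Far contacts of the region mostly ended in class 1. Of its ensemble cis contact ends over 2 Mb away, 66.9% (66.1 to 67.7) had their partner in class 1, against 61.5% for class 1 bins of chromosome 1 in general and 36.2% for class 2 bins. In the pool the share was 68.2% (63.8 to 72.3), against 57.4% and 22.9%, and in the 9 cells it was 19 of 26, or 73.1% (53.9 to 86.3). For trans partners the share was 62.3% (61.7 to 62.9) in the ensemble, 67.8% (63.3 to 71.9) in the pool and 27 of 42 in the 9 cells, or 64.3% (49.2 to 77.0). Of the trans partners of class 1 and class 2 bins of chromosome 1, 59.7% and 49.0% were class 1 in the ensemble. These values were 62.2% and 33.6% in the pool, and 58.4% and 33.8% in the 9 cells. The region was thus near class 1 bins in general. The classes were called on the ensemble, so its own shares are a description of the same contacts, while the pool and the cells are other maps.

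The share was higher on the gene side. There 71.2% (70.3 to 72.0) of far cis partners were class 1 in the ensemble and 73.9% (68.9 to 78.4) in the pool, against 50.9% (49.1 to 52.7) and 54.2% (45.7 to 62.5) on the right side. Cd28 had 78.3% (75.2 to 81.1), Ctla4 74.6% (71.4 to 77.5) and Icos 69.4% (66.1 to 72.5) in the ensemble. Neighbours in this order have overlapping intervals, while those of Cd28 and Icos are apart. The pool held only 24, 21 and 17 far cis ends for Cd28, Ctla4 and Icos, with shares of 66.7% (46.7 to 82.0), 71.4% (50.04 to 86.2) and 52.9% (31.0 to 73.8).

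Among 255 partner bins of 500 kb on chromosome 1 over 2 Mb away, with an expected count of at least 20, 59 reached 1.5-fold in the ensemble. Of 41229 pairs of 500 kb bins of the chromosome over 2 Mb apart, 17.4% did. Those pairs join smaller stretches than the region and needed an expected count of only 100/9, so the 2 shares are not like for like. Class 1 held 56 of these 59. The median ratio was 1.75 over 89 class 1 partners and 0.396 over 166 class 2 partners. Summed over the class 1 partners the pool had 266 contacts, a ratio of 1.06 (0.936 to 1.19), and over the class 2 partners 117, a ratio of 0.292 (0.241 to 0.350), so the pool too met class 1 more, at a lower level in both.

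The leading far partner lay at 133.0 to 133.5 Mb, 71.6 Mb away, with 83 contacts against 23.5 expected, a ratio of 3.53 (2.81 to 4.38). It was 2.11 when the expected count was scaled by the partner's own cis contacts in place of its fragment ends. The next were 135.5 to 136.0 Mb with 3.01 (2.35 to 3.82), 13.0 to 13.5 Mb with 3.01 (2.51 to 3.58), 87.5 to 88.0 Mb with 2.89 (2.46 to 3.37) and 132.5 to 133.0 Mb with 2.81 (2.15 to 3.61). All 5 were class 1, and their intervals overlap. The pool held 1 to 3 contacts with each and the 9 Bgl II cells 0. Cell 8, cut with Dpn II, held a contact from 60940789, in the Ctla4 window, to 13163613, inside the partner bin at 13.0 to 13.5 Mb.

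The far profile of the region was most like those of 5 bins at 74.5, 36, 93, 40 and 52 Mb (starts of 500 kb bins). Pearson's r of their far cis ratios with the region's was 0.948 over 246 shared partner bins for the first, 0.931 over 230 for the second and 0.930 over 197 for the third. The median r over 349 bins was 0.021. All of the 20 most alike bins were class 1. These profiles come from 1 library, share its depth and base composition, and are given as a description.

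No trans bin of 500 kb reached an expected count of 20, the highest being 9.28, so trans partners were taken in bins of 5 Mb, a size added after the data were seen. Of 467 such bins, 60 reached 1.5-fold (12.8%). The leading partner was chromosome 11 from 115 to 120 Mb, with 162 contacts against 60.6, a ratio of 2.67 (2.28 to 3.12). Chromosome 17 from 25 to 30 Mb followed with 2.55 (2.17 to 2.97) and chromosome 15 from 75 to 80 Mb with 2.47 (2.09 to 2.90). Chromosome 11 gave 2 more of the leading 5, from 0 to 5 Mb with 2.40 and from 120 to 125 Mb with 2.39. Scaled by each partner's own contacts with chromosome 1, the ratio of the bin on chromosome 11 from 115 to 120 Mb was 1.47 (1.25 to 1.71). With that scaling 2 of 443 bins reached 1.5-fold, and the highest ratio was 1.69. The ratios were thus lower once the contacts of all of chromosome 1 with each partner set the expected count.

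By whole chromosome, the region met chromosome 11 with a ratio of 1.39 in the ensemble and 1.74 in the pool, and chromosome 19 with 1.38 and 1.73. Chromosome X was lowest in these cells from male mice, at 0.316 in the ensemble and 0.279 in the pool. Chromosome 3 had 0.816 and 0.538. The 9 cells together held too few trans contacts to rank chromosomes, with 3 to chromosome X against 2.29 expected and 1 to chromosome 11 against 2.42.

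The single cells each showed 1 small sample of these contacts. The 9 Bgl II cells held 8 to 25 contacts touching the region and 135 in all, and cell 8 held 7. Cell 1 held the most, with 10 inside the region, 7 leaving it within chromosome 1 and 8 in trans. Cell 10 held the fewest of the Bgl II cells, with 3, 4 and 1. The 9 cells placed 4 contact ends in the Cd28 window, 10 in the Ctla4 window and 3 in the Icos window.

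Several cells held local contacts of one gene with its surroundings. For Cd28, cell 1 joined 60770676 to 60609606, cell 7 joined 60779635 to 60593984, and cell 3 joined 60791422 to 60917940, just left of the Ctla4 window. For Ctla4, cells 4 and 5 each held a contact with both ends in the window, from 60934734 to 60949429 and from 60964712 to 60968976. Cell 3 joined the Ctla4 window at 60930366 to 60997007, between Ctla4 and Icos, and at 60968977 to 61837014, beyond the domain limit. For Icos, cell 3 joined 61056779 to 61097822, cell 4 joined 61060379 to 61164746 and cell 10 joined 61043153 to 61635834, beyond the limit. Cell 8 joined 61018123 in the Icos window to 60695186, left of Cd28. Each gene was thus seen in contact with its own domain in at least 1 cell, and no pair of genes in any.

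**Figure D5:**
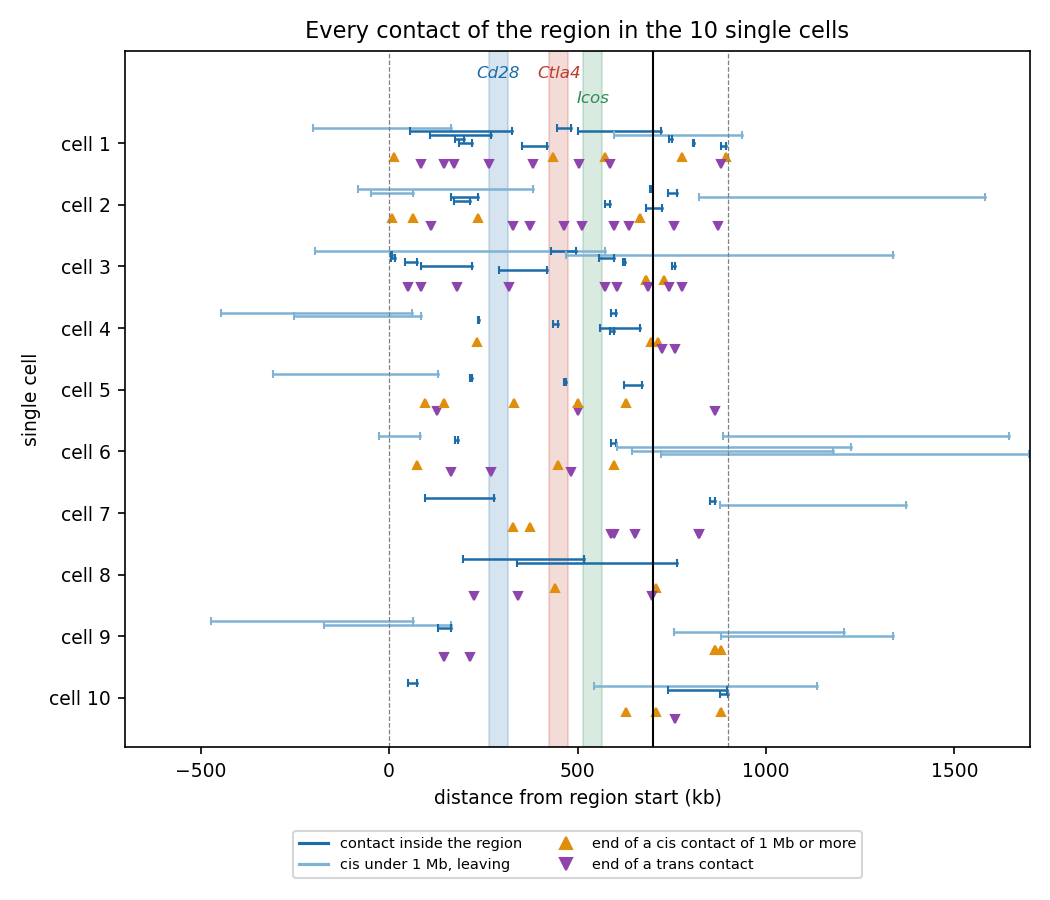
Each contact with an end in the region, by cell (vertical axis), along the distance from the region's start in kb, with bars for contacts inside the region and for those under 1 Mb that leave it, and triangles for ends of longer cis contacts and of trans contacts. The 3 gene windows are shaded, and no bar joins 2 of them. Bars across the solid domain limit are fewer than bars left of it. Inside the region, fewer contacts were also expected across it (2.19) than left of it (15.6) in the 9 Bgl II cells.

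In some cells, several trans contacts of the region went to a single chromosome. In cell 1, 5 of 8 trans contacts went to chromosome 9, in cell 2, 5 of 9 went to chromosome 19, in cell 3, 4 of 9 went to chromosome 6, and in cell 7, 3 of 5 went to chromosome 14. In cell 9, 2 of 2 went to chromosome 4. In cells 4, 5, 6, 8 and 10, with 2, 3, 3, 3 and 1 trans contacts, no chromosome received more than 1. The same shares were not computed for the rest of chromosome 1. In cell 2, the ends at 60611520, 60828360 and 61135427 met chromosome 19 at 10126715, 10582016 and 10425782, all within 455 kb. In cell 3, the ends at 60550900 and 61278076 met chromosome 6 at 146795323 and 146343709, 452 kb apart, and in cell 1 the ends at 60646567 and 61379662 met chromosome 9 at 46713322 and 46012913. Distant points of the region thus met 1 neighbourhood of another chromosome in these cells. Of the 73 far contacts of the 10 cells, 9 pairs within a cell had partners less than 1 Mb apart. Of these pairs, 3 come from cell 9, where neighbouring fragment ends at 61364920, 61364921 and 61379662 met chromosome 1 from 106401376 to 107269727. Another 3 come from the chromosome 19 contacts of cell 2 named above. Within each of these cells the 3 pairs share contacts and are not independent.

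Between cells, 5 pairs of far contacts had partners less than 1 Mb apart. Neither this count nor the one within cells was set beside other regions. Cells 1 and 6 both met chromosome 9 near 46 Mb, at 46012913 and 45854036, 159 kb apart, from 61379662 and from 60983170. Cells 6 and 10 met chromosome 1 at 89860411 and 90116398, 256 kb apart, the former from the Ctla4 window at 60949428. Most far partners differed from cell to cell.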

How the data were processed

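The deposited files list contacts as 2 chromosomes and 2 positions in bp, with 1 line per distinct contact, per the file headers. Positions are on mm9, per the submitters' processing notes, from an aligner and filters not given in the sources used here. No cell is named in the pooled file, and the lines of the 9 Bgl II cells were removed from it. The 3 genes, the region and all lists and tests were chosen with earlier results of these data known. Named items were the 3 gene windows, the 5 highest and 5 lowest 25 kb pairs at least 100 kb apart, the 5 leading far cis and trans partners with an expected ensemble count of at least 20, the 5 most similar profiles, and contacts of single cells.

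Expected counts were chromosome 1 means per distance, scaled by fragment ends (distinct contact positions in the ensemble). Matrices were balanced in 50 iterations, leaving out rows under 0.2 of the median. Insulation minima with a prominence of at least 0.1 were limits. Shares were compared within cells by exact two-sided sign-flip permutation tests with Benjamini-Hochberg adjustment over 3 tests, at a threshold of 0.05. Scripts used matplotlib 3.10.9, pandas 2.3.3, scipy 1.17.1 and numpy 2.4.6 in Python 3.11.15, and were tested on simulated data. Alternatives changed the scaling, window, bin, distance limits, comparison set and cells used. Trans bins of 5 Mb, 100 kb blocks and the balanced values across the limit were added after the data were seen.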

Additional observations from a re-analysis of the deposited data

Results flagged for a closer look

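Of 7 sets of 9 Bgl II cells checked for a single cell far from the others, 1 held one. The share of cis ends in contacts under 1 Mb over the rest of chromosome 1 was 58.4% in cell 10, and 33.6% to 45.1% in the other cells. In the region itself cell 10 had 70.0%, within the range of the others, so its difference of 11.6 points was the smallest of the 9. Chance marks about 1 in 20 such sets.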

How the results depend on the processing

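Of 74 alternative values, 61 counted as unchanged. For tests this meant the same direction and side of the threshold, and for ratios and far shares a value inside the main interval. Other values had set tolerances: a factor of 1.5 for counts of bin pairs, 50 kb for domain limits and 10 points for the compartment percentile. No call past the threshold was lost. Leaving out 1 cell at a time gave 4.89 to 10.0 points for the trans share, 29.5 to 33.9 points for the share under 1 Mb and 0.24 to 0.35 for the log2 density. With all 10 cells the trans difference was 8.66 points, with an adjusted p of 0.041 in the exact permutation test, and against all autosomes it was 4.73 points (0.297). A 250 kb insulation window put the limits at 60.5 and 61.3 Mb, and the matrix without balancing put the left one at 59.85 Mb. Blocks of 100 kb gave 13 pairs at 2-fold, out of fewer pairs by construction. The region's compartment percentile was 77.1 at 1 Mb, 87.4 at 100 kb and 60.9 without balancing, where all bins of chromosome 1 had 1 sign and the class says nothing. The ratios of the bins that led before were 2.11 in cis and 1.47 in trans when scaled by the partner's own contacts, and 2 of the 5 leading partners were kept in each. Balanced values were 0.865 across the limit and 0.931 within the right side. The cause of these moves was not tested. No paired analysis between groups was made, since the labels name no pairing of their samples. The tests over cells already take the difference between the region and the rest within each cell. Depth limits the cells to 8 to 25 contacts each here, and the ensemble and pool are single maps without replicates.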
